A study of Rattus norvegicus with 9 samples.

Results

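Femurs of male rats whose growth plate injury was treated with a hydrogel (GMTT) were compared with femurs carrying the same injury without treatment (GPI), both at day 7 after surgery. The members are the protein-coding genes that had at least 10 counts in 3 or more of the 6 libraries. They number 14178, of 31125 gene rows in the count table and 23098 protein-coding rows. The GPI rats had an injury of the growth plate at the distal end of the femur, and the GMTT rats had that injury plus the hydrogel, which the series title describes as GelMA with TPGS and tea polyphenols. A Sham group had surgery without the injury, and its levels stand beside the comparison. Each group had 3 libraries. The labels give no strain, age, dose or site of application, name 1 sampling time for all groups, and do not say how much muscle and marrow was kept on the bone. The design therefore compares hydrogel and no hydrogel as a whole, since GelMA, TPGS and the polyphenols were given together and a carrier without them was not analysed here.

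The growth plate is the cartilage disc at which a long bone lengthens. After an injury it is usually filled by blood and inflammatory cells, then by fibrous and vascular tissue, and often by a bridge of bone. GelMA is gelatin bearing methacryloyl groups, so that light can set it into a gel. TPGS is a water-soluble derivative of vitamin E, and tea polyphenols are catechin antioxidants. A whole femur also holds red and yellow marrow, compact and spongy bone, vessels, nerve, and whatever muscle and tendon remain attached, and all of them contribute to its RNA.

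The 6 libraries held between 17305492 and 19715997 counts. Levels are given as normalised CPM, which are counts divided by the TMM-scaled library total, in the order of libraries 1, 2 and 3, and changes as log2 fold changes of GMTT against GPI with standard errors (SE). Correlations of log2 CPM across genes were 0.9945 to 0.9959 among GMTT libraries, 0.9917 to 0.992 among GPI libraries, and 0.6788 to 0.6819 between the groups. The 91 genes of the skeletal muscle lists took 21.7% ± 0.175 of all counts in GPI (21.5% to 21.8%), 4.42% ± 0.131 in GMTT (4.27% to 4.51%) and 0.640% ± 0.0103 in Sham (SD, n = 3). Mitochondrially encoded genes took 26.6% ± 0.768, 6.17% ± 0.356 and 3.99% ± 0.199 in the same order. The 25 granule and neutrophil genes took 0.00254% ± 0.000104 in GPI, 1.41% ± 0.0305 in GMTT and 1.19% ± 0.0440 in Sham, and 4 hemoglobin genes took 0.107% ± 0.00495, 3.83% ± 0.207 and 7.15% ± 0.485. These shares separated the same libraries as every result below, and their part in each result was not tested. Usp9y, a Y-linked gene, had counts in every GMTT library and in no other, and RT1-N2, a histocompatibility gene, had almost none in GMTT alone. The labels do not give the rats' strain or litter, so a difference between the groups in either cannot be told apart from the treatment. Pooling of tissue is neither stated nor denied in the labels, nor whether each library is a separate rat, and p-values therefore reflect library-to-library spread, which may be technical. In bulk tissue, fewer cells of a type and less RNA per cell cannot be told apart. Collagens of cartilage cells, the cells of the growth plate itself, had 6 members, 2 higher and 4 lower, but 4 and 1 with library sizes only. On the TMM scale they ranged from Col10a1 at -3.47 to Col11a2 at 0.75. Sox9, a marker of cartilage cells, was at -1.93 on that scale. Col2a1, the main collagen of cartilage, was at 3.97, 3.85 and 3.52 in GPI and 2.55, 2.57 and 2 in GMTT, against 13.8 in Sham. Col9a1 had 3 counts over the GPI libraries and 5 over the GMTT libraries, too few to enter the comparison, and Ihh had 3 and 2.

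The scaling between libraries sets where 0 lies. TMM factors averaged 0.591 in GPI and 1.30 in GMTT. The median log2 fold change over all 15999 genes tested was 0.08 with TMM, 0.09 with median-of-ratios scaling and -0.08 when 15 broadly expressed genes were used, but 1.21 with library sizes only. Directions below are on the TMM scale, and the counts that library sizes alone would give stand beside the gene groups whose counts they change.

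Most protein-coding genes differed between treated and untreated injured femurs. With edgeR's quasi-likelihood test, at a Benjamini-Hochberg threshold of 0.05, 6306 members were higher in GMTT and 6038 lower, and 1834 were not called. These are 44.5% and 42.6% of the members, against 44.7% and 41.2% of all genes tested, and 87.1% of the members and 85.8% of the genes tested were called in either direction. With library sizes only, 10255 members were higher and 2715 lower. For 87.2% of the members the 3 GMTT values did not overlap the 3 GPI values, against 85.9% of all genes tested. The upper and lower sides differed in shape. At 4 or more log2 units, 1159 members were higher and 147 lower, and at 6 or more 554 were higher and 8 lower. The 5th and 95th percentiles of the members were -2.97 and 5.42. On the low side of abundance, 1266 members had at least 10 counts in every GMTT library and in no GPI library, against 135 the other way. In GPI 242 members had no count, against 1 in GMTT. These are raw counts. The TMM-scaled library totals were 10222557 to 11682588 in GPI and 22942580 to 23565813 in GMTT. The same 10 counts therefore stand for a higher CPM in GPI, and the part of this in the 2 contrasts was not tested. Of the members, 12049 had at least 10 counts in all 6 libraries. The 1459 members just inside the rule had a median of 123 counts summed over the 6 libraries, and the 275 genes just outside it 40. The plot of every member against its abundance shows the long upper arm of blood cell genes and the compact lower arm of muscle genes.

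**Figure D1:**
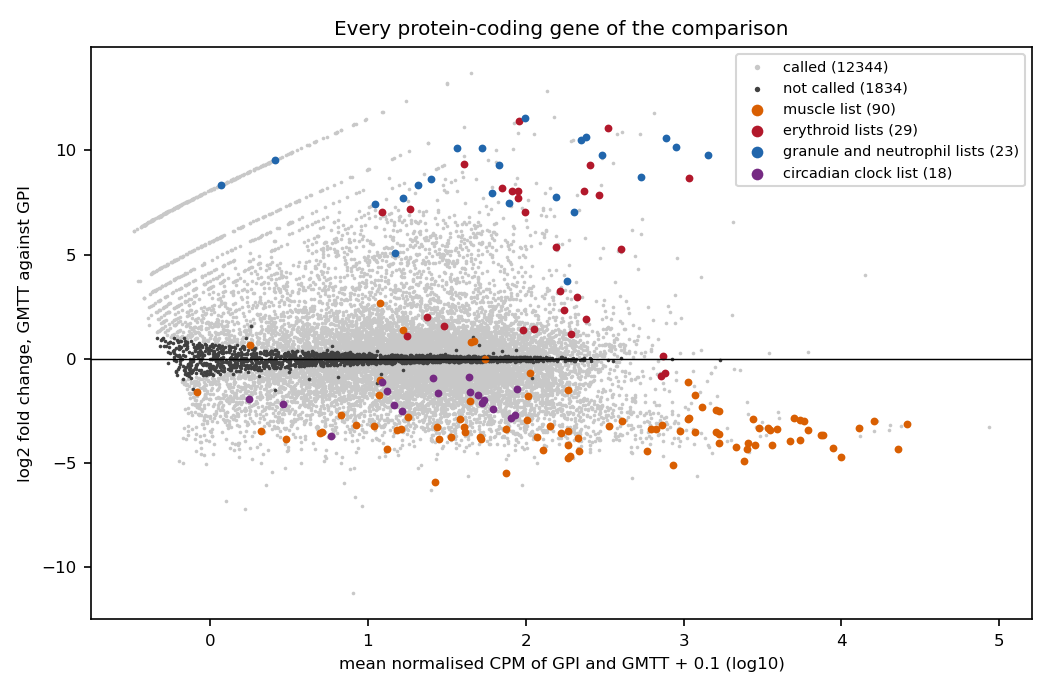
Each point is 1 of 14178 protein-coding genes, by mean normalised CPM of GPI and GMTT plus 0.1 (x axis, log10) and log2 fold change of GMTT against GPI (y axis), with the muscle, erythroid, granule and clock lists coloured. Granule and erythroid genes reach above 8 (log2), muscle genes lie mostly between -2 and -5, and 1834 genes that were not called sit near 0.

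Many genes at the ends of this range are known from blood cells on one side and from contracting or stressed muscle on the other. Ifitm6, a membrane protein of the interferon-induced transmembrane family, had no count in GPI and 6233 over the GMTT libraries, which makes it at least 1001-fold higher when 3 counts are taken as the floor of the whole GPI group. Slc14a1, the urea transporter of red cells, was at least 707-fold higher by the same floor, with 4404 counts in GMTT. Mcpt10, a mast cell protease family gene, had 1 count in GPI against 18927, which gives a ratio of 9121 (95% interval from counting error alone, 1637 to 360291). At the other end, Ephx2, which encodes soluble epoxide hydrolase (ENSRNOG00000017286, mRatBN7.2 chromosome 15, 40289902 to 40327615), was at 49.2, 49 and 49.1 in GPI and 0.552, 0.872 and 0.435 in GMTT, a change of -6.30 (SE 0.23). It lay below Sham too, where it averaged 4.4 ± 0.654. Ucp1, the heat-producing uncoupling protein of brown fat, was picked after its values were seen, as the member with counts in GPI and none in GMTT. It was at 16 ± 0.363 in GPI and 0.0162 ± 0.028 in Sham. Nr4a3, an orphan nuclear receptor induced by activity and stress, changed by -6.02 (SE 0.11), Sln (sarcolipin, a regulator of the muscle calcium pump) by -5.89 (SE 0.21) and Abra, an actin-binding activator of muscle gene expression, by -5.71 (SE 0.06). Among genes of mean log2 CPM above 5, those whose interval lay closest to 0 were Gabarap, Rpl24, Gdi2, Prkar1a and Tmem59. Gabarap, a protein of autophagosome membranes, was at 140.0, 167 and 157 in GPI and 158, 154 and 155 in GMTT, and Prkar1a, a regulatory subunit of protein kinase A, at 236, 229.7 and 239 and 229, 245 and 233. With library sizes only these genes would be higher in GMTT by about the shift of the median.

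Genes of skeletal muscle were lower in treated femurs in nearly every role. Of 90 muscle members, 84 were lower, 5 higher and 1 not called (80 lower and 7 higher with library sizes only), with a median of -3.37 against 0.08 over all genes tested. Acta1, the actin of skeletal muscle thin filaments (ENSRNOG00000017786, mRatBN7.2 chromosome 19, 51883715 to 51886742), was at 45684, 48854 and 45200.3 CPM in GPI and 5617, 5493 and 4997 in GMTT, a change of -3.12 (SE 0.05) (edgeR quasi-likelihood test with Benjamini-Hochberg adjusted p = 1.37e-31). All 3 treated libraries lay far below all 3 untreated ones, and still above Sham at 581 ± 35.6. Its promoter is shown because muscle genes moved together and because it holds the muscle E-box CAGCTG, a sequence that myogenic factors such as MyoD can bind. The sequence, from the RefSeq annotation of the GRCr8 build, is the 250 bases before the start of Acta1 at chr19:68784195-68784444 on the minus strand, with the motif in capitals.
Acta1 promoter: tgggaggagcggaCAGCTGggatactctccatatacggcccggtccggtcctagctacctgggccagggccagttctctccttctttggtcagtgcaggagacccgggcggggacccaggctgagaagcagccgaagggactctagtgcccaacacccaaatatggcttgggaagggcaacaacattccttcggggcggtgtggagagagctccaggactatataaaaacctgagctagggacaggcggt
CAGCTG was found in 21 of the 69 muscle members with a RefSeq promoter entry (30.4%) and in 12.0% of 33469 RefSeq promoters. All motif searches covered both strands of the 250 bases before the start. A match describes the letters only. It overlapped no other motif searched.

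Medians of the muscle roles lay between -3.71 and -3.20, and the range within each role was wider than that. Structural proteins of the sarcomere were lower throughout: all 20 of 20 thin filament and Z-disc members and all 10 of 10 myosins were lower, by medians of -3.40 and -3.71. Titin (Ttn), the elastic filament of the sarcomere, was at 46752, 37924 and 45679.9 in GPI and 2194, 2259.6 and 2143 in GMTT. Myh2, a fast oxidative myosin, had the largest change of the myosins at -4.68 (SE 0.04), and Myl1 the smallest at -2.95 (SE 0.04). Among genes of calcium handling and energy, all 18 of 18 were lower (median -3.34), from Sln to the calcium buffer parvalbumin (Pvalb), which went from 1427, 1511 and 1450.3 to 684, 649 and 676. With library sizes only, 17 of these 18 were lower. Regulators of muscle formation were lower in 13 of 14 members (12 with library sizes only). Myf6, a late myogenic factor, changed by -4.77 (SE 0.07) and Myod1, a factor of activated myoblasts, by -1.71 (SE 0.11). Pax7, which marks satellite cells, the stem cells of muscle, was at 5, 6.51 and 4.99 in GPI and 0.424, 0.392 and 0.304 in GMTT, and had no count in Sham. The stress and wasting genes held the widest range. Ankrd1, a stretch-responsive ankyrin repeat protein, changed by -5.46 (SE 0.10), and Trim63, the ubiquitin ligase MuRF1 of muscle atrophy, by -4.41 (SE 0.06), while the metal-binding metallothionein Mt1, which many tissues express, was higher by 2.70 (SE 0.15).

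Genes of the junction between nerve and muscle did not all move alike. Of 15 members, 12 were lower, 2 higher and 1 not called, with a median of -3.20 (10 lower and 4 higher by library size alone). The sodium channel Scn4a changed by -4.14 (SE 0.05) and the receptor-clustering kinase Musk by -3.39 (SE 0.14). Chrng, the gamma subunit of the fetal form of the acetylcholine receptor, was at 133, 132 and 124 in GPI and 82.2, 79.9 and 85.1 in GMTT, with 94.2 ± 1.27 in Sham, so that it differed far less than the other subunits; with library sizes only it was higher in GMTT rather than lower. Within each library, the log2 ratio of deposited FPKM of Chrne (adult epsilon subunit) to Chrng was -1.69, -1.69 and -1.61 in GPI and -4.86, -4.05 and -4.78 in GMTT. The 2 groups did not overlap, and an exact permutation test of 3 against 3 libraries gives p = 0.1, the smallest it can reach.

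Genes of blood cell lineages were higher in treated femurs. Of 139 members of the blood cell lists, 128 were higher in GMTT, 8 lower and 3 not called (134 higher and 3 lower by library size alone). The median was 5.86, or 5.35 when genes with 3 or fewer counts in GPI are placed at their bound, against 0.08 over all genes tested. All 15 of 15 erythroid regulators and heme synthesis genes were higher (median 5.35). Gata1, the master factor of red cell formation, was at 0.0862, 0.257 and 0 in GPI and 88, 79.2 and 77.7 in GMTT. Alas2, the rate-limiting enzyme of heme synthesis in red cells (ENSRNOG00000000167, mRatBN7.2 chromosome X, 19463171 to 19486519), was at 18.6, 19.9 and 23 and 794, 783 and 770.5, a change of 5.26 (SE 0.06). Every treated library exceeded every untreated one many times over, and Sham was higher again at 1469 ± 41.7. The promoter of Alas2 is printed as an example of a gene from this group that holds AGATAA, a sequence that GATA factors bind. It lies at chrX:22895200-22895449 on the plus strand (RefSeq, GRCr8; the motif in capitals).
Alas2 promoter: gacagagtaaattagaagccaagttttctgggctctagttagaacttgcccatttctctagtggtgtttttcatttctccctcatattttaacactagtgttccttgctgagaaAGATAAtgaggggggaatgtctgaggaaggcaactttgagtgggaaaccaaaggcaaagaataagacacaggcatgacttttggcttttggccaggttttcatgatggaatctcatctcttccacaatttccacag
AGATAA occurred in 5 of 20 erythroid promoters with an entry (25%) and in 10.3% of all RefSeq promoters. The erythroid membrane list held 12 higher and 2 lower members (14 higher with library sizes only). Rhag, which carries the Rh complex, had 2 counts in GPI against 12509, a ratio of 3014 (834 to 24892). The water channel Aqp1, which vessel cells also make, was at 927, 961 and 925 in GPI and 591, 596 and 573 in GMTT, lower by 0.68 on the log2 scale but higher with library sizes only.

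Most neutrophil genes were nearly absent from untreated femurs and abundant in treated ones. All 9 of 9 members for primary granules, the storage granules laid down first in neutrophil precursors, were higher (median 9.54, or 8.71 with low counts at their bound), as were all 14 of 14 for later granules and mature cells (median 8.48 or 8.30). Elane, neutrophil elastase, had 2 counts over the GPI libraries and 13778 over the GMTT libraries, a ratio of 3319.9 (919 to 27417). Mpo, the myeloperoxidase of primary granules (ENSRNOG00000008310, mRatBN7.2 chromosome 10, 72594661 to 72604819), was at 1.81, 3.94 and 1.86 in GPI, 1122, 1121 and 981 in GMTT and 812 in Sham. S100a8, a calcium-binding protein that fills the cytosol of mature neutrophils, was at 1.9, 1.03 and 1.76 and 1759, 1682 and 1943, and Camp, a cathelicidin of later granules, at 0.259, 0.342 and 0.293 and 505, 467 and 481. In each of these genes the treated libraries were close to each other and to Sham, and the untreated ones held few counts. Ltf, a gene of the later granules, had only 1 count over the GPI libraries, 8 over GMTT and 4 over Sham. Stfa2, of the same list, had 0, 17 and 35. Both had too few counts to be members. The Mpo promoter at chr10:73092152-73092401 on the plus strand (RefSeq, GRCr8) is printed as a granule gene promoter with GAGGAA, the core that the myeloid factor PU.1 binds, in capitals where it reads TTCCTC on the printed strand.
Mpo promoter: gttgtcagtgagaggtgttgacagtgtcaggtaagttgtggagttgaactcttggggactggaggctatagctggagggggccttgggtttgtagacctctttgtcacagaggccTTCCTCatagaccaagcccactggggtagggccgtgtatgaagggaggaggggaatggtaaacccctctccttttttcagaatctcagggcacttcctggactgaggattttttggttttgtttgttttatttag
GAGGAA was held by 10 of 19 granule and neutrophil promoters with an entry (52.6%) and by 23.3% of all RefSeq promoters.

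Other blood lineages lay on the same side. All 9 of 9 eosinophil members were higher (median 10.50 or 8.02 with low counts at their bound). Epx, eosinophil peroxidase, was at 0.345, 0.342 and 0.0978 in GPI and 415, 402 and 379 in GMTT, against 972 ± 36.5 in Sham. Megakaryocyte and platelet genes were higher in 13 of 13 members (median 6.70), among them Treml1, a receptor on platelet granules, at 7.63 (SE 0.46). Early B cell genes were higher in 11 of 11, and those of mature B and plasma cells in 12 of 12. Rag1, which cuts DNA to assemble antigen receptors, was at 0.259, 0.171 and 0 in GPI and 59.6, 58.5 and 65.6 in GMTT, and Jchain, which joins secreted antibodies, at 0.345, 0.514 and 1.37 and 131, 122 and 144. T cell genes were sparser: 8 of 11 were higher, 1 lower and 2 not called (10 higher with library sizes only). Cd8a, the co-receptor of cytotoxic T cells, was at 0.172, 0.0856 and 0.0978 in GPI, 5.81, 5.62 and 6 in GMTT and 1.5, 1.63 and 1.68 in Sham, whereas Foxp3, the factor of regulatory T cells, was at 0.604, 0.514 and 0.391 and 0.424, 0.523 and 0.522 and was not called. Mast cell and basophil genes had a median of 1.93 over 11 members, 9 of them higher (11 with library sizes only). Tpsb2, a mast cell tryptase, was at 1.98, 1.97 and 1.47 and 2.21, 2.35 and 2.13 and was not called. Stem and progenitor genes were split, with 10 higher and 5 lower of 15 (11 and 3 with library sizes only). Myb, needed by dividing progenitors, changed by 8.27 (SE 0.40), and Hlf, a stem cell factor that is also an output of the clock, by -2.48 (SE 0.10).

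Macrophage genes were also higher in treated femurs. Of 21 macrophage members, 19 were higher, 0 lower and 2 not called, with a median of 2.38 (all 21 higher with library sizes only). Csf1r, the receptor for the growth factor CSF1, was at 17.9, 16.6 and 17.4 in GPI and 172, 167 and 157 in GMTT, and Cd163, a scavenger receptor for hemoglobin, at 16.6, 13.3 and 16.7 and 89.8, 90.3 and 85.1. Mertk, which macrophages use to engulf dying cells, had the smallest difference at 0.03 and was not called. Genes of the fusion of macrophages into giant cells and osteoclasts, which also form around implanted material, were higher in all 8 of 8 members (median 5.90 or 4.73). Dcstamp, needed for fusion, had 1 count in GPI and 258 in GMTT, a ratio of 124 (22.1 to 4929.8). It was at 3.71 ± 0.25 CPM in GMTT and 5.5 ± 0.555 in Sham. Among resorption genes 9 of 10 were higher (all 10 with library sizes only). Acp5, the acid phosphatase of osteoclasts, was at 6.47, 5.14 and 6.36 in GPI and 163, 153 and 140.4 in GMTT, and Ctsk, the protease that cuts bone collagen, at 36.7, 37.1 and 34.4 and 348, 336 and 346. Nfatc1, the master factor of osteoclasts and also of other cells, went the other way at -0.49, a direction that turned with library sizes only.

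Signals that recruit and alert immune cells were mostly higher. Of 20 chemokine ligands, 17 were higher and 2 lower, and of 16 receptors 12 were higher and 3 lower (18 and 13 higher with library sizes only). Ccl2, which draws monocytes, was at 0.776, 0.77 and 0.587 in GPI, 1.78, 1.92 and 2 in GMTT and 0.404 in Sham. Its receptor Ccr2 was at 3.45, 2.31 and 3.52 and 137, 144 and 166, with 83.9 in Sham. Ccl21, which guides T and dendritic cells along lymph vessels, was lower at -2.62 (SE 0.16). Of 16 Toll-like receptors and co-receptors, which sense microbial and damaged material, 15 were higher. Tlr2 was at 1.21, 1.37 and 1.96 in GPI and 31.8, 35.5 and 33.9 in GMTT. Tlr3, the sensor of double-stranded RNA, was the exception at -1.54 (SE 0.10).

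Complement and antigen presentation held both directions. Of 24 complement members, 17 were higher, 5 lower and 2 not called (21 higher and 3 lower with library sizes only). C3, the central component, was at 1.64, 2.65 and 1.08 in GPI, 429, 429 and 402 in GMTT and 294 in Sham. Masp1, a protease that starts the lectin route, was lower at -3.09 (SE 0.07), and Cfi, which degrades active C3, at -3.53 (SE 0.33). MHC class II genes, which present peptides to helper T cells, were higher in 9 of 11 members (median 2.88; all 11 with library sizes only). Cd74, the invariant chain that accompanies class II molecules, was at 46.5, 48.8 and 43.1 in GPI and 355, 336 and 326 in GMTT, and RT1-Da at 19.7, 19.2 and 21.2 and 98.9, 99.2 and 99.2. The treated libraries exceeded Sham for both genes, at 143 ± 4.58 and 27.1 ± 0.472. RT1-Bb went the other way at -0.66 but was higher with library sizes only. The RT1 genes are near-identical copies in part, and the treatment of reads that match several of them is not given in the sources used here, which leaves single RT1 values uncertain.

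Among matrix genes, the material of scar and of basement membranes, the latter were lower in treated femurs. All 8 of 8 basement membrane collagens were lower, with a median of -2.16, and 7 of them with library sizes only. Col4a1, the main chain of vessel and muscle basement membranes, was at 875, 879 and 869.5 in GPI and 267, 269 and 259 in GMTT, and Col15a1, which sits beneath it, at 243, 248 and 235 and 57.3, 54.4 and 54.1. Fibrillar collagens had small differences. Col1a1, the chief collagen of bone and scar, was at 5431, 5638 and 5359.8 in GPI and 6911, 7071 and 6469 in GMTT, a change of 0.32 (SE 0.04), with 4593 ± 189 in Sham. Col3a1, which is laid down early in scar, was at 2704, 2771 and 2585 in GPI and 1875, 1882 and 1843 in GMTT, lower by 0.53 but higher with library sizes only; Sham was at 445 ± 6.3. Of the 12 fibrillar and associated members, 3 were higher and 9 lower, and with library sizes only 10 were higher and 2 lower. Among small leucine-rich proteoglycans, which space collagen fibrils, 8 of 10 were lower, but 8 were higher with library sizes only. Lum (lumican) stood apart at 0.48 (SE 0.05) from Prelp at -1.40 (SE 0.10).

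Several enzymes that cut the matrix were higher, among them those that neutrophils store, and so was Mmp3. Of 16 matrix metalloproteinases, 10 were higher, 4 lower and 2 not called (14 and 2 higher and lower by library size alone). Mmp8, the collagenase of neutrophil granules, was at 0.776, 0.77 and 0.489 in GPI and 605, 585 and 631 in GMTT, and Mmp9, a gelatinase of neutrophils and osteoclasts, at 2.07, 0.942 and 1.17 and 318, 319.7 and 290.1. Both stood with the granule genes above. Mmp3, stromelysin 1 (ENSRNOG00000032626, mRatBN7.2 chromosome 8, 4640416 to 4653961), which fibroblasts and synovial cells release, was not chosen by the rule for named genes but after its values were seen. It was at 0.431, 0.342 and 0.196 in GPI, 46.2, 40.8 and 45 in GMTT and 0, 0 and 0.0454 in Sham, a change of 7.04 (SE 0.43) (edgeR quasi-likelihood test with Benjamini-Hochberg adjusted p = 8.63e-27). All treated libraries exceeded all others, while the untreated and sham libraries were both near 0. Its promoter at chr8:12925031-12925280 on the plus strand (RefSeq, GRCr8) is printed because Mmp3 was far above both other groups, with the AP-1 motif TGANTCA in capitals.
Mmp3 promoter: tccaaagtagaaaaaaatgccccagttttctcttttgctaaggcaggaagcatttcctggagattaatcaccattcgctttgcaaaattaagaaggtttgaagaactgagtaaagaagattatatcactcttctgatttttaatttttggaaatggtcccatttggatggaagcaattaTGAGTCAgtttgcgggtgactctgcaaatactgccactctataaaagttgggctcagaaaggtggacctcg
TGANTCA was found in 6.34% of all RefSeq promoters. Mmp12, macrophage elastase, had 1 count in GPI and 146 in GMTT, a ratio of 70.4 (12.4 to 2798). Mmp15, a membrane-bound enzyme, was lower at -2.69 (SE 0.09). Inhibitors of these enzymes did not follow them: 4 of 6 were lower (1 with library sizes only), with a median of -0.41 that turned to 0.73 with library sizes only. Timp4, an inhibitor abundant in muscle, was at 82.5, 80.4 and 78 in GPI and 6.24, 5.32 and 6.82 in GMTT, and Timp1 at 14.9, 14.6 and 13.5 and 20.4, 18 and 18.4. The ADAMTS proteases were evenly split, with 5 higher and 5 lower of 11 (8 and 3 with library sizes only). That is 45.5% each way, near the 44.7% and 41.2% of all genes tested. Their median of 0.13 was -0.03 when scaled to broadly expressed genes. Adamts4, which cuts aggrecan and versican, was at 1.98, 2.14 and 1.96 in GPI and 5.26, 5.01 and 4.65 in GMTT, and Adamts1 changed by -2.32 (SE 0.07).

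Integrins, the receptors by which cells hold matrix and each other, lay on both sides. Of 26 chains, 11 were higher and 14 lower (18 and 7 with library sizes only). The shares were 42.3% and 53.8%, beside 44.7% and 41.2% of all genes tested. Itga7, the laminin receptor of muscle, was at 138, 129 and 132 in GPI and 15.4, 13.5 and 11.8 in GMTT. Itgb2, the beta chain of leukocytes, was at 2.5, 3.51 and 4.3 and 218, 212 and 199. Itga2b, an alpha chain of platelets, was at 2.76, 3.34 and 1.47 and 315, 309 and 279. Itgb6, which activates TGF-beta at epithelia, was lower at -4.09 (SE 0.08).

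Genes of bone matrix and mineral were mostly higher, and regulators of bone formation were mixed. Of 13 matrix and mineral members, 9 were higher, 2 lower and 2 not called, with a median of 1.45 (12 higher with library sizes only). Of 9 regulators, 4 were higher, 2 lower and 3 not called, with a median of 0.30 (7 higher and 1 lower by library size alone). On the TMM scale that is 44.4% higher and 22.2% lower, beside 44.7% and 41.2% of all genes tested. Sost, an inhibitor of Wnt signalling made by osteocytes, the cells buried in mineral, was at 0.517, 0.0856 and 0.587 in GPI, 20.6, 21.1 and 18.8 in GMTT and 26.5 ± 1.62 in Sham. Phex, which restrains the hormone FGF23, was at 2.85, 2.65 and 2.25 and 14.9, 16 and 15.2. Fgf23 itself, which lowers blood phosphate, had 3 counts in GPI and 553 in GMTT, a ratio of 88.8 (30.2 to 432). At 7.17, 8.33 and 8.39 CPM it also exceeded Sham, at 1.79, 0.989 and 1.77. Osteoblast genes differed less: Ibsp, a mineral-binding sialoprotein, was at 57.3, 59.4 and 59.9 and 157, 157 and 168, and Runx2, the factor that commits cells to bone, at 7.93, 9.33 and 9 and 29.9, 30.5 and 28.6. Phospho1, a phosphatase that starts mineral, was lower at -1.56 (SE 0.07). Of 7 osteoclast signals, 3 were higher, 1 lower and 3 not called (6 higher and 1 lower by library size alone). Their TMM shares were 42.9% higher and 14.3% lower, against the same 44.7% and 41.2%. Tnfsf11, which encodes RANKL, the signal for osteoclast formation, was at 0.172, 0.428 and 0.489 in GPI and 2.8, 3.84 and 3.09 in GMTT, and its decoy receptor Tnfrsf11b at 1.9, 3.51 and 3.03 and 2.67, 2.31 and 2.26, which was not called.

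Growth factor pathways of the growth plate lay mostly lower on the TMM scale, and this depended on the scale. Of 93 members, 25 were higher, 55 lower and 13 not called, but with library sizes only 52 were higher and 28 lower, and the median of -0.61 became 0.53. The genes named next kept their direction on both scales. Ghr, the growth hormone receptor, was at 234, 224 and 231 in GPI and 25, 27.2 and 26.6 in GMTT, and Igf2, a fetal growth factor, at 207, 198 and 207 and 37.5, 41.4 and 39.1. Bmpr1b, a receptor for bone morphogenetic proteins in cartilage, changed by -4.02 (SE 0.33) and Id1, a target of that pathway, by -1.67 (SE 0.07). Pthlh, which holds growth plate cells in division, changed by -2.75 (SE 0.43) from a mean of 1.58 CPM. Mstn, myostatin, a brake on muscle growth, changed by -3.15 (SE 0.16) and Tgfb2 by -2.43 (SE 0.07). In the other direction, Tgfb1, which leukocytes and platelets store, was at 17.5, 21.1 and 20 in GPI and 112, 114 and 96.7 in GMTT. Inhba, whose dimer is activin A, was at 1.64, 1.11 and 1.57 in GPI, 8.23, 10.2 and 9.65 in GMTT and 3.55 in Sham. Lef1, a Wnt factor also of early B cells, changed by 5.22 (SE 0.42). Dkk1, a secreted Wnt inhibitor, had 2 counts in GPI and 445 in GMTT, a ratio of 107 (29.5 to 888), and Sfrp5, another, was lower at -4.58 (SE 0.53).

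The hydrogel carries antioxidants, so genes of redox defence were described by role. Of 64 members, 33 were higher, 25 lower and 6 not called, with a median of 0.62 (50 and 11 with library sizes only). These are 51.6% and 39.1% of the members, beside 44.7% and 41.2% of all genes tested. Enzymes that remove superoxide and peroxide were split, 4 higher and 8 lower of 14, and 10 and 4 with library sizes only. Sod3, the superoxide dismutase of the matrix, was at 51, 56.5 and 48.7 in GPI and 10.4, 10.5 and 8.91 in GMTT, and Gpx1, a peroxidase abundant in red cells, had the largest rise at 2.49 (SE 0.05). Prdx2, a peroxiredoxin that red cells also hold in quantity, was at 164, 173 and 174 and 526, 486 and 483, with 844 ± 34.1 in Sham. Gpx4, which protects membrane lipids, was lower at -1.34 (SE 0.06). The glutathione genes Gclc and Gclm, the 2 subunits of the rate-limiting enzyme, were at 18.4, 19.3 and 19.7 and 20.2, 18.2 and 19.8 in GPI and at 78.1, 77.9 and 79.3 and 79.1, 76.8 and 83.7 in GMTT, both higher but under Sham at 191 and 143. Nfe2l2 encodes NRF2, the factor that switches on such genes. It was at 68.8, 68.1 and 68.7 in GPI and 62.5, 56.1 and 64.2 in GMTT, a difference of -0.17 that became positive with library sizes only and was not called without GMTT library 2. Among targets and regulators of NRF2, 7 were higher and 6 lower of 13 (10 and 2 with library sizes only), and Maff, a small partner protein of NRF2, was lower at -2.99 (SE 0.16). The NRF2 element TGACNNNGC was in 8 of 50 promoters of redox members (16%) and in 10.1% of all.

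Genes that make oxidants were higher in all members but 1. Of 8 members of the NADPH oxidase and peroxidase group, 7 were higher and 1 lower on both scales, with a median of 5.62. Cybb, the catalytic subunit in phagocytes, was at 8.36, 7.19 and 6.07 in GPI, 327, 336 and 337 in GMTT and 271 ± 8.67 in Sham, and Nox4, a subunit of fibroblasts and vessels, at 3.1, 4.11 and 3.33 and 0.849, 1.13 and 0.869. Nos2, the inducible nitric oxide synthase, was at 2.16, 2.4 and 3.42 in GPI, 20.7, 19.6 and 17.5 in GMTT and 2.72, 4.3 and 5.72 in Sham. Every treated library was above every library of the other groups. The 5 genes that carry vitamin E, the group to which TPGS belongs, were all higher (median 2.16). Sec14l2, which binds tocopherol in the cytosol, was at 1.21, 1.8 and 2.25 in GPI, 45.3, 42.7 and 45.1 in GMTT and 81.2 ± 2.08 in Sham, and Scarb1, a lipoprotein receptor that takes up vitamin E, at 21, 22.5 and 19.7 and 66.7, 65.6 and 57.8, with 65.2 ± 3.15 in Sham. In both, the treated level was at or below that of Sham.

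The series title concerns pyroptosis, a lytic death driven by inflammasomes. The sensor and protease it names, Nlrp3 and Casp1, were higher in GMTT by 5.76 and 2.94 on the log2 scale; both are outside the rule for named genes. Of 10 members for other inflammasomes, 9 were higher and 1 lower, with a median of 3.04 (9 higher with library sizes only). Nlrc4, which senses bacterial flagellin, was at 0.345, 0.342 and 1.17 in GPI, 23.2, 25.7 and 24.6 in GMTT and 17.2 ± 0.0675 in Sham. Aim2, a sensor of cytosolic DNA, was at 0.517, 0.599 and 0.978, 6.58, 6.97 and 7.13 and 11.5 ± 1.3. Gsdme, a pore-forming gasdermin, was at 0.862, 1.2 and 0.88 and 6.37, 6.67 and 7.17. Leukocytes make these sensors, and leukocyte markers were higher in the same libraries; their part in this result was not tested. Apoptosis genes of both kinds, killers and protectors, were higher in 18 of 22 members (median 1.16; all 22 with library sizes only). Bcl2a1, a survival protein of leukocytes, was at 0.949, 0.428 and 0.783 in GPI and 13.3, 13.4 and 15.2 in GMTT. Ripk3 and Mlkl, the kinase and the pore of necroptosis, changed by 2.27 (SE 0.11) and 0.50 (SE 0.11).

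Interferon-stimulated genes did not move as 1 block. Of 23 effectors, 10 were higher, 12 lower and 1 not called (15 and 6 with library sizes only). These are 43.5% and 52.2%, beside 44.7% and 41.2% of all genes tested. Mx2, an antiviral GTPase, was at 27.9, 30 and 34.8 in GPI, 1.99, 1.61 and 1.69 in GMTT and 5.33, 4.94 and 5.04 in Sham. Of 11 regulators, 9 were higher and 1 not called, with a median of 1.00, and Irf7 was the 1 that was lower (10 and 1 higher and lower by library size alone). Irf7, the factor that amplifies type I interferon, was at 55.4, 62.9 and 54.3, 16.6, 17.3 and 14.4 and 34.4, 34.1 and 38.1. For Mx2 and Irf7 all treated libraries lay below all libraries of the other groups. In contrast Oas3, which makes the messenger that activates RNase L, changed by 4.94 (SE 0.42), and Irf8, a factor of monocytes and dendritic cells, by 4.66 (SE 0.12). Gbp2, a GTPase induced by interferon gamma, was at 21.6, 20.7 and 24.1 in GPI, 52.1, 53.3 and 54.4 in GMTT and 25.8, 25.3 and 25.5 in Sham, above both.

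Genes of the circadian clock were lower without exception on the TMM scale. All 18 of 18 members were called lower, with a median of -1.93, and with library sizes only 15 were lower and 2 (Cry1 and Cry2) higher, at a median of -0.79. In the clock, Clock and Bmal1 switch on the Per and Cry genes, whose proteins shut them off, and the nuclear receptors Nr1d1 and Nr1d2 repress Bmal1. Activators and repressors peak at opposite times of day in a running clock. Clock was at 80.1, 69.4 and 79.9 in GPI and 21.1, 22.8 and 24.3 in GMTT. Bmal1 was at 15.6, 18.2 and 16.5 and 7.89, 7.63 and 7.52, lower by 1.13 on the TMM scale and level with library sizes only. Per2 was at 86.1, 87.5 and 85.5 and 19.3, 20.9 and 18.9, and Nr1d2 at 149.8, 135 and 137 and 18.1, 19.3 and 21.7, the latter with a change of -2.83 (SE 0.07). Dbp, an output factor, was at 40.3, 43.9 and 41.3 and 13.5, 13.6 and 13.8. Sham levels lay near those of GMTT for most of these genes, for example 18.3 ± 0.524 for Per2 and 16.8 ± 1.66 for Nr1d2. Ciart, a repressor of Clock and Bmal1 (ENSRNOG00000042717, mRatBN7.2 chromosome 2, 183419819 to 183423313), was an exception at 2.59, 3.68 and 1.57 in GPI, 0.764, 0.61 and 0.739 in GMTT and 1.41, 1.68 and 1.72 in Sham. Its promoter is shown since it holds CACGTG, the E-box bound by Clock and Bmal1, 3 times. It is chr2:186112247-186112496 on the minus strand (RefSeq, GRCr8), with the E-boxes in capitals.
Ciart promoter: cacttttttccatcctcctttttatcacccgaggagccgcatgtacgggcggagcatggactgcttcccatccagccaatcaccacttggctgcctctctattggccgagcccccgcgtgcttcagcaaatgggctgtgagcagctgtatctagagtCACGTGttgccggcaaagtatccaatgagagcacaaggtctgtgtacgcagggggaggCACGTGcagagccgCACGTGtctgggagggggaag
CACGTG was in 4 of 16 clock promoters with an entry (25%) and in 5.59% of all RefSeq promoters. The labels name 1 sampling time for all groups. Muscle, whose share fell in the same libraries, also runs a clock, and its part in these values was not tested.

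**Figure D2:**
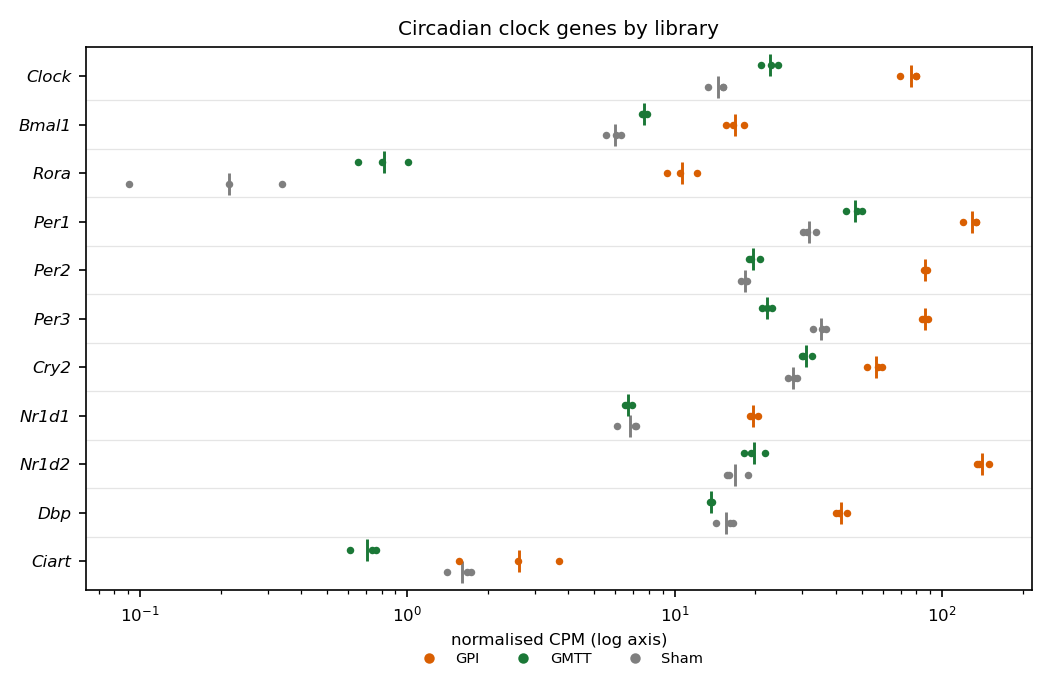
Normalised CPM (x axis, log scale) of 11 clock genes in each library (points) with the mean of each group (ticks), for GPI, GMTT and Sham. In each gene the 3 GMTT points lie below the 3 GPI points on the TMM scale, which for Bmal1 and Cry2 did not hold with library sizes only.

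Many genes that respond to hormones, stimulation and stress were lower in treated femurs on the TMM scale, fewer with library sizes only. Of 17 glucocorticoid-responsive members, 5 were higher and 10 lower (9 and 7 with library sizes only). Zbtb16, a zinc finger factor strongly induced by glucocorticoids, was at 78.9, 77.4 and 75.3 in GPI and 3.39, 3.97 and 3.48 in GMTT, whereas Fkbp5, a chaperone of the receptor and another common readout, was at 81.2, 79.4 and 81 and 95.3, 97.3 and 89.5, higher by 0.22. Lcn2, an iron-binding protein that neutrophils also store, was the highest at 7.06 (SE 0.13). Of 19 immediate early genes, which cells switch on within minutes of a stimulus, 14 were lower and 4 higher (6 and 9 with library sizes only). Atf3 was at 143, 157 and 143 in GPI and 6.24, 5.75 and 6.17 in GMTT and Fos at 26.8, 24.7 and 22.6 and 4.92, 6.32 and 5.3. Myc, a driver of cell growth, was the highest at 1.81 (SE 0.07). Heat shock genes were lower in 12 of 15 members (8 with library sizes only). The largest differences were in small heat shock proteins that muscle holds in quantity, such as Hspb7 at -4.49 (SE 0.05) and Cryab at -4.17 (SE 0.05). Chaperones of the secretory route went the other way: of 17 members of the unfolded protein response, 12 were higher and 4 lower (15 and 0 with library sizes only), led by Sdf2l1 at 3.54 (SE 0.18). Hspa5, the main chaperone there, was at 303, 312 and 313 and 506, 516 and 517, and the stress factor Ddit3 at 25.7, 27.6 and 29.1 and 13.7, 13 and 12.2, lower but not with library sizes only.

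Fuel use separated by pathway and by isoform. Fatty acid oxidation genes were lower in 19 of 22 members on both scales (median -3.12). Ppargc1a, the co-activator that builds mitochondria in muscle, was at 55.8, 48.2 and 51.7 in GPI and 1.82, 1.66 and 2.17 in GMTT, and Cpt1b, which admits fatty acids to muscle mitochondria, at 550.2, 564 and 505 and 40.3, 39.6 and 36.5. Of 19 genes of mitochondrial formation and dynamics, 16 were lower (11 with library sizes only), while Ucp2, the uncoupling protein of leukocytes, was at 20.4, 23.2 and 18.7 and 798, 761 and 669. Glycolysis genes were split, 9 higher and 11 lower of 20 (12 and 6 with library sizes only). In shares this was 45% and 55%, beside 44.7% and 41.2% of all genes tested. Hk3, the hexokinase of myeloid cells, was at 0.69, 0.342 and 0.196 and 58.1, 56.5 and 51.8, and Slc2a4, the insulin-responsive glucose carrier of muscle and fat, at 735, 775 and 719.8 and 60.7, 58.1 and 56.8.

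Pairs of related genes give ratios within a library, which do not depend on scaling between libraries. Most pairs encode forms of the same function in different cells or fibre types. Tpsb2 with Cpa3 and S100a8 with S100a9 were instead pairs from the same cell type. Of 22 pairs, 21 had values. Pygm (glycogen phosphorylase of muscle) over Pygl (that of liver and leukocytes) had a log2 FPKM ratio of 9.21, 9.06 and 8.87 in GPI and 1.69, 1.73 and 1.62 in GMTT, so that the muscle form led in both groups but by far less in GMTT. In Sham the mean was -1.34, with the other form ahead. The ribosomal protein pair reversed: Rpl3l, made in striated muscle, over Rpl3, made elsewhere, averaged 2.27 in GPI and -3.04 in GMTT. Psmb8 over Psmb5, the immune and the constitutive catalytic subunit of the proteasome, averaged -5.11 in GPI, -0.33 in GMTT and -0.74 in Sham. Ratios of fast to slow forms of muscle genes differed by less than that of Chrne to Chrng above. Tnnc2 over Tnnc1, fast over slow troponin C, averaged 3.32 and 3.34 with overlapping libraries, and Atp2a1 over Atp2a2, the fast and slow calcium pumps, 2.51 and 2.47, also overlapping. Myh4 over Myh7, fast over slow myosin, was 0.08, -0.07 and 0.09 in GPI and 0.68, 0.68 and 0.75 in GMTT. Exact permutation tests of 3 against 3 libraries reach no less than p = 0.1 (0.124 adjusted over the 21 pairs), so these ratios are given by their overlap.

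**Figure D3:**
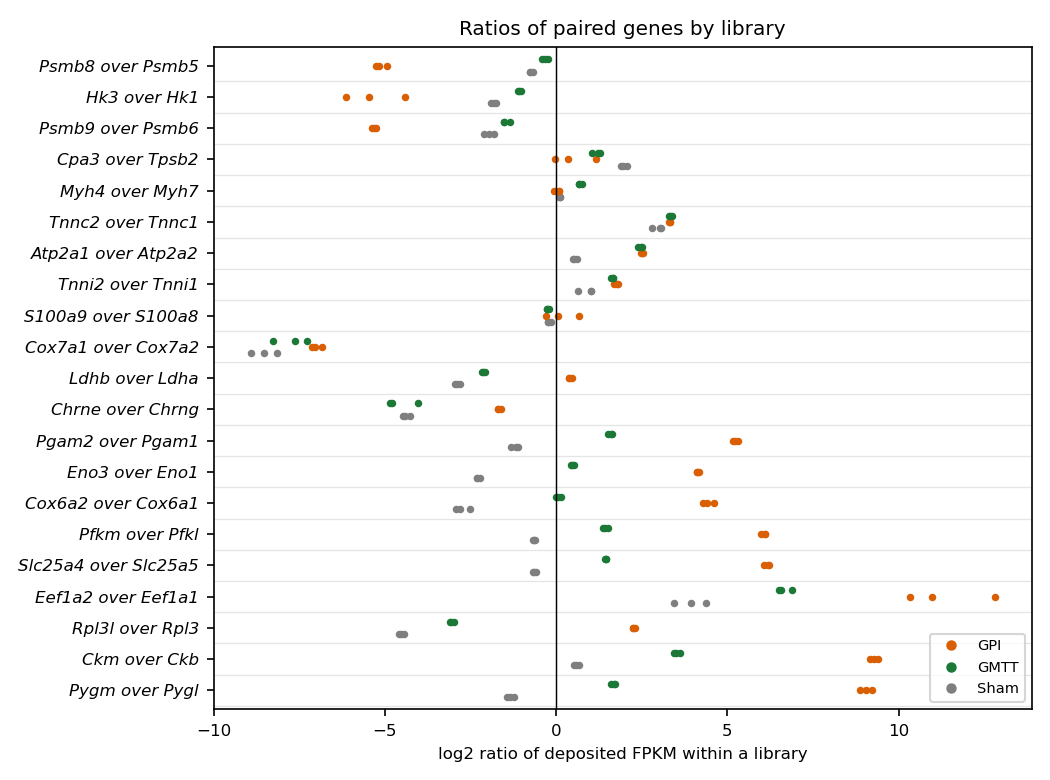
The log2 ratio of deposited FPKM of paired genes within each library (x axis) for 21 pairs, with 3 points per group for GPI, GMTT and Sham. Pygm over Pygl lies furthest apart between GPI and GMTT, and the fast over slow pairs of troponins, calcium pumps and myosins lie within 1 log2 unit.

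Genes shared by all endothelial cells were lower, and several genes of sinusoidal vessels were higher. All 11 of 11 genes shared by endothelial cells were lower (7 lower and 2 higher with library sizes only), with a median of -1.33. Cdh5, the adhesion protein of endothelial junctions, was at 302, 307 and 296 in GPI and 49.4, 47.8 and 42.5 in GMTT. Capillary and arterial genes were lower in 12 of 13 members (8 with library sizes only). Car4, a carbonic anhydrase on the capillaries of muscle and lung, was at 28.3, 31.8 and 29.5 and 1.19, 0.959 and 1.48. In contrast, 8 of 10 genes of sinusoidal and lymphatic vessels were higher (9 with library sizes only). Stab2, a hyaluronan receptor of marrow sinusoids, was at 0.431, 0.856 and 1.08 in GPI, 45.8, 46.4 and 44.9 in GMTT and 36.6 ± 2.06 in Sham, and Prox1, the factor that specifies lymph vessels, was the exception at -3.48 (SE 0.22). The cells that wrap vessels were lower in all 12 of 12 members, and in 8 with library sizes only. Myh11, the myosin of smooth muscle, changed by -2.21 (SE 0.06).

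Stromal and fat genes had no common direction across scales, while nerve genes were mostly lower on both. Of 15 fibro-adipogenic and perivascular members, 5 were higher and 7 lower (9 and 4 with library sizes only). On the TMM scale that is 33.3% and 46.7%, beside 44.7% and 41.2% of all genes tested. Lepr, the leptin receptor that marks the stroma of marrow, was at 4.57, 3 and 1.86 in GPI and 35, 33.7 and 35.5 in GMTT, and Prrx1, a factor of limb mesenchyme, at 135, 137 and 129 and 32, 37.9 and 37.4. Of 17 myofibroblast and tendon members, 11 were lower and 4 higher, but 5 and 11 with library sizes only. Scx, the tendon factor, changed by -2.26 (SE 0.12) and Tnmd by -1.56 (SE 0.09). Fat cell genes were lower in 12 of 14 members, and in 6 with library sizes only. Plin1, the coat protein of fat droplets, was at 17.4, 20.4 and 18.2 and 17.5, 16.9 and 14.2 and was not called, while Plin5, its form in oxidative muscle, changed by -4.33 (SE 0.18). Of 14 Schwann cell and myelin genes, 11 were lower and 2 higher (8 and 4 with library sizes only). Mbp, a myelin protein with forms in blood cells, changed by 1.29 (SE 0.09). Hox and limb identity genes were lower in 15 of 21 members (7 with library sizes only), such as Hoxc10, a gene of the hind limb, at -2.89 (SE 0.09). Imprinted growth genes were higher in 0 of 15 members and lower in 12 (3 and 8 with library sizes only).

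Genes of dividing cells were higher by a median of 3.89, in 22 of 24 members (23 with library sizes only). Rrm2, which makes the building blocks of DNA, was at 2.41, 1.71 and 1.86 in GPI, 168, 163 and 163 in GMTT and 229 ± 4.8 in Sham, and Ccnb1, the cyclin of mitosis, at 1.98, 2.23 and 1.76, 128, 132 and 125 and 174 ± 0.986. Cdkn1a, the p21 inhibitor of division, was lower at -2.87 (SE 0.08). The immune proteasome subunits Psmb8 and Psmb9 were higher at 3.72 (SE 0.12) and 2.79 (SE 0.14), whereas 14 of 19 proteasome members as a whole were lower and, with library sizes only, 1. Among iron genes, 7 were higher and 5 lower of 15 (12 and 1 with library sizes only), and their median of 0.11 became -0.04 when scaled to broadly expressed genes. The TMM shares of iron genes were 46.7% and 33.3%, beside 44.7% and 41.2% of all genes tested. Slc11a1, the metal carrier of phagosomes, changed by 4.92 (SE 0.27), and Hjv, a co-receptor for iron sensing that muscle makes, by -3.21 (SE 0.05).

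**Figure D4:**
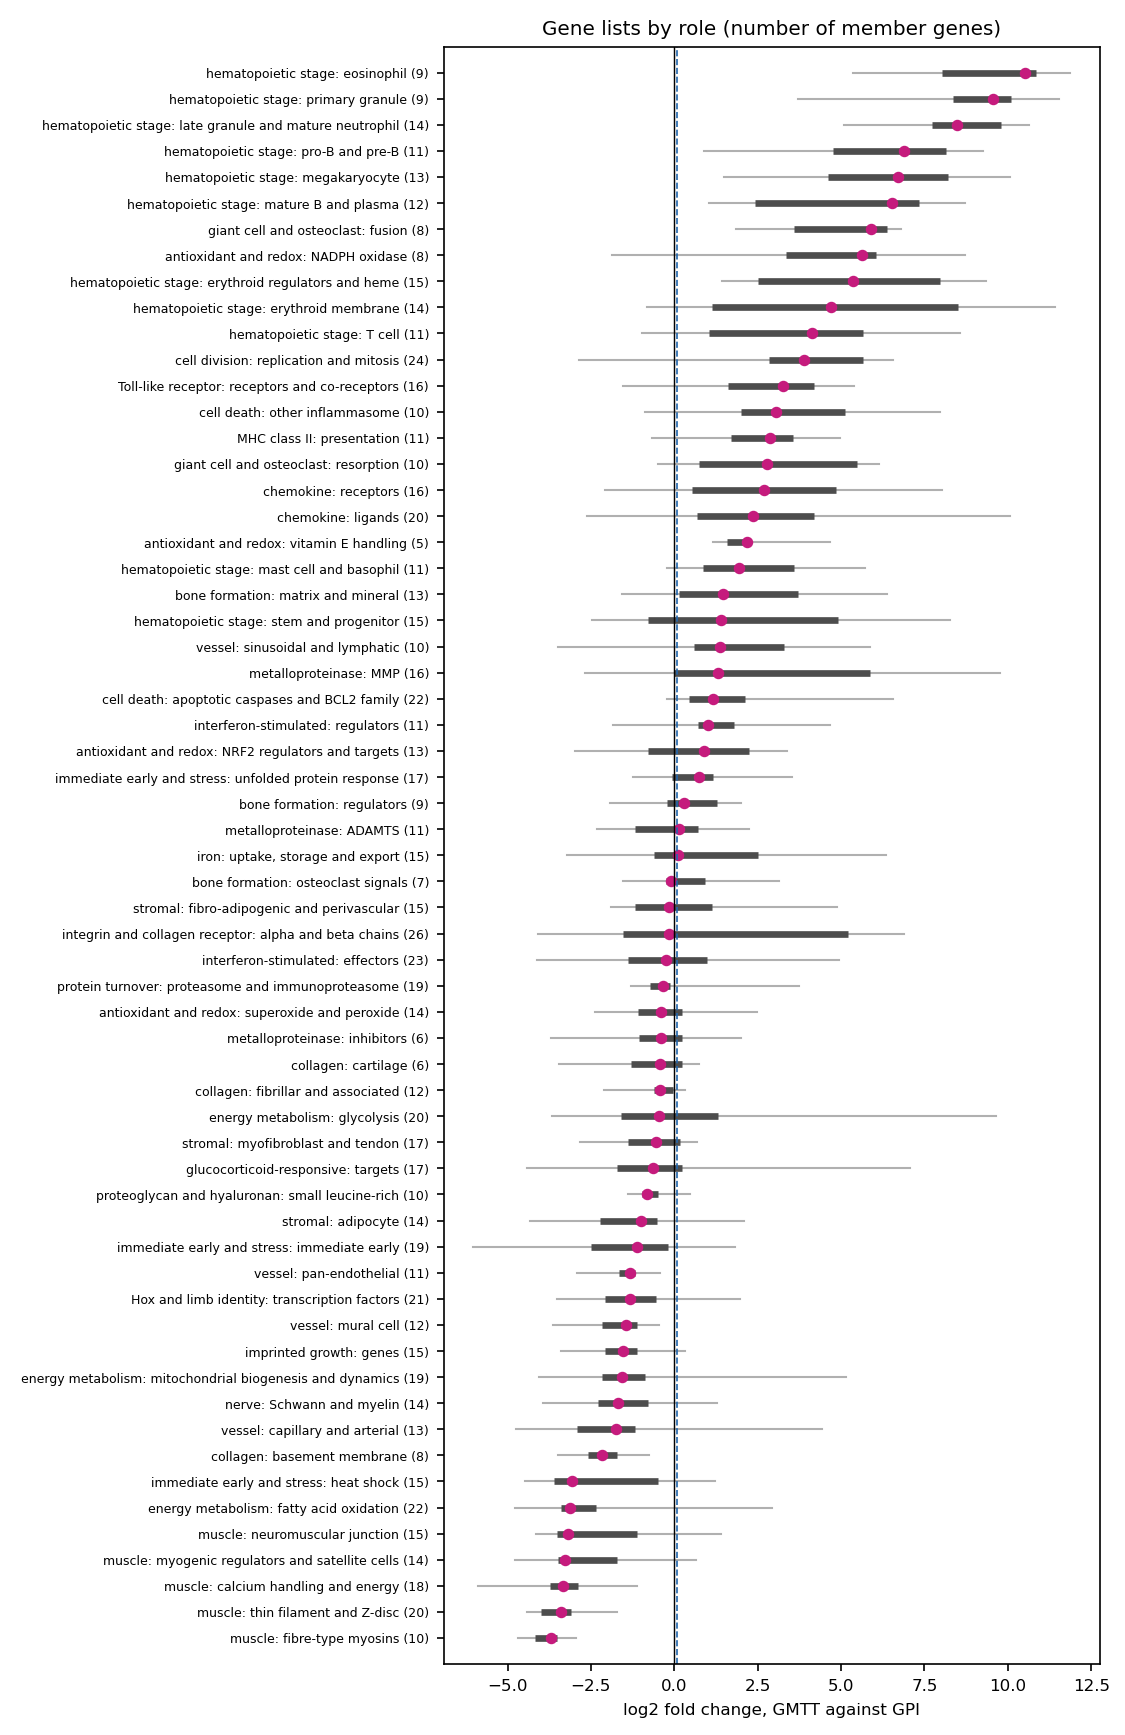
For each role whose own counts stand in the text, the median (point), the 25th to 75th percentile (thick bar) and the full range (thin line) of the log2 fold change of GMTT against GPI on the TMM scale, with the number of members in brackets. The dashed line is the median of all genes tested at 0.08, and with library sizes only that median would be 1.21.

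Most members lay between untreated and sham femurs on the TMM scale. In 9239 of the 14178 members the GMTT mean lay between the GPI and Sham means. In 1407 members all 3 GMTT libraries were above all GPI and Sham libraries, and in 861 they were below. These counts of members are on the TMM scale, whose factors averaged 0.591 in GPI and 1.30 in both GMTT and Sham. Counts with library sizes only, and shares over all genes tested, are not given here. With a further minimum of 2-fold from the nearer group and of 1 CPM in GMTT, 150 members were above both. With the same fold minimum and 1 CPM in both other groups, 19 were below both. The 2 numbers thus rest on different floors. The genes that follow were taken from these after their values were seen. Ighg1, Cd8b, Prf1 and Ccl5, genes of lymphocytes, were also among those above both. Many others above both carried only an identifier and lay on chromosomes 4 and 6, most with no count in GPI. ENSRNOG00000069405 and ENSRNOG00000070816, for example, had 643 and 410 counts over the GMTT libraries, 0 in GPI and 158 and 28 in Sham. The genes named here therefore do not stand for the 150 as a whole. Prg4, lubricin, the lubricant of joint surfaces, was at 49.1, 41.8 and 47.3 in GPI, 86.8, 102 and 95 in GMTT and 2.42, 2.71 and 2.59 in Sham. Vcan (versican, a large proteoglycan of provisional matrix) was at 62.4, 57.8 and 63.3, 140.3, 141 and 144 and 43.2, 43.5 and 38. Has2, which makes hyaluronan, was at 1.29, 0.856 and 0.587, 3.69, 3.18 and 3.91 and 1.36, 0.774 and 1.09. The limb factor Pitx1 was at 0.862, 1.11 and 0.391, 3.18, 3.75 and 2.61 and 0.388, 0.473 and 0.862. Hp, haptoglobin, which binds free hemoglobin, was at 2.41, 2.48 and 2.45, 208, 201 and 191 and 93.6, 91.2 and 96.3. Mmp3, Nos2, Fgf23, Inhba, Cd8a, Cd74 and RT1-Da above belong to the same selection. Below both, besides Ephx2, Mx2 and Irf7, was Herc6, an interferon-induced ligase, at 43.9, 41.9 and 43.1 in GPI, 6.24, 5.58 and 7.08 in GMTT and 13.4, 13.5 and 12.4 in Sham.

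**Figure D5:**
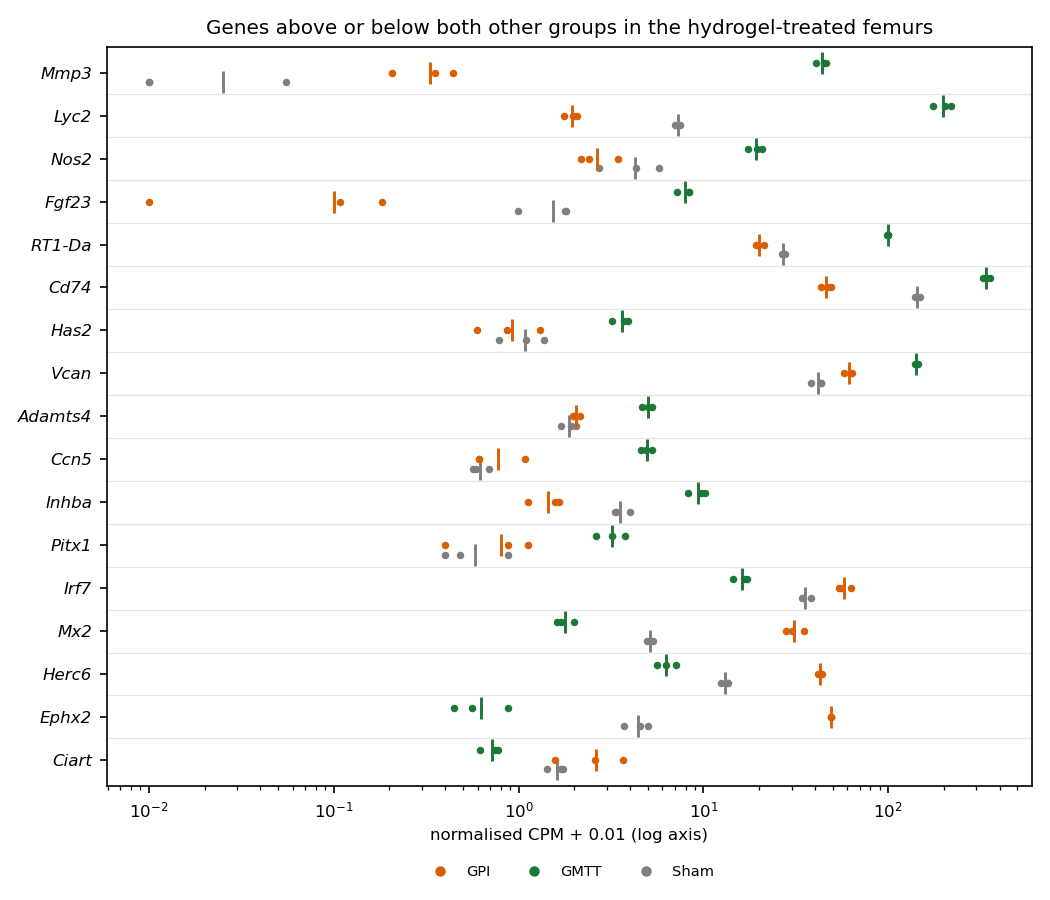
Normalised CPM plus 0.01 (x axis, log scale) in each library (points) with group means (ticks) for 17 genes whose GMTT libraries all lie above or all lie below every GPI and Sham library. Mmp3 shows the widest gap, with GMTT libraries near 44 and GPI and Sham libraries below 1.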

How the data were processed

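Bulk RNA of rat femurs was sequenced after TRIzol extraction, poly(A) selection and strand-marking dUTP library preparation, per the labels' protocols. The authors deposited 1 table of whole-number read counts per gene and 1 table of FPKM values per gene. Per the submitters' processing notes, reads were placed on mRatBN7.2. How reads were aligned and counted, with which strand setting, and what became of reads with several matches is not given in the sources used here.

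Counts of all 9 libraries entered 1 model of 3 groups in edgeR 4.0.16 (TMM, robust quasi-likelihood F test, 2-sided; R 4.3.3). Genes with at least 10 counts in 3 or more libraries were kept. Adjusted p-values (Benjamini-Hochberg) cover all 15999 genes tested, and a gene was called below 0.05. On simulated counts the test found 100%, 94%, 90% and 42% of changes of 4, 2, 1.5 and 1.25-fold among 15999 genes. It called 0.038% of unchanged ones. Whether these shares hold for the femur libraries, whose TMM factors averaged 0.591 in GPI and 1.30 in GMTT, was not tested. The median biological coefficient of variation was 5.09%. FPKM were used for ratios of gene pairs within a library, tested by exact permutation. Where a group had 3 or fewer counts, an interval or a floor of 3 counts replaces the fold; both cover counting error only.

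The 14178 members, the 82 gene lists (1171 symbols, 1143 matched, 1073 members) and the tests were chosen with earlier results of these data known. Named genes were the key genes of each list, the highest and lowest of each role, the most abundant, the most changed and the least changed genes, and the gene pairs; exceptions are marked. Promoters are from RefSeq (GRCr8) and were matched by symbol. Alternatives covered scaling, filters, DESeq2 1.42.0, limma 3.58.1 on log2(FPKM + 1) and log2(FPKM + 0.1), 6 libraries, a replicate block, a 2-fold minimum and each library left out in turn. Figures used matplotlib 3.10.9.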

Additional observations from a re-analysis of the deposited data

How the results depend on the processing

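Scaling had the largest effect. With library sizes only, 10255 members were higher and 2715 lower, and a test against a 2-fold minimum left 3324 and 3195. All other settings stayed within 5653 to 6542 higher and 5762 to 6611 lower, including 6215 and 5839 with DESeq2. With library sizes only, the log2 fold change turned to 0.46 for Aqp1, 0.011 for Bmal1, 0.48 for Chrng, 0.46 for Col2a1, 0.61 for Col3a1, 0.060 for Ddit3, 1.07 for Foxp3, 0.65 for Nfatc1, 0.97 for Nfe2l2, 0.93 for Plin1, 0.013 for Pvalb, 0.48 for RT1-Bb and 0.92 for Tnfrsf11b. The median turned to 0.72 for fibrillar and for cartilage collagens, 1.05 for osteoclast signals, 0.60 for myofibroblast and tendon genes, 0.31 for small leucine-rich proteoglycans, 0.73 for metalloproteinase inhibitors, 0.97 for integrin chains, 0.53 for growth plate signalling, 0.73 for superoxide and peroxide enzymes, 0.90 for interferon effectors, 0.50 for glucocorticoid targets, 0.022 for immediate early genes, 0.68 for glycolysis, 0.97 for fibro-adipogenic genes, 0.14 for fat cell genes and 0.79 for the proteasome. Scaled to broadly expressed genes, Gabarap and Prkar1a turned to -0.15 each, and the medians of ADAMTS proteases and iron genes to -0.025 and -0.040. This scaling also ended the call of Fkbp5. Nfe2l2 was not called without GMTT replicate 2, without Sham replicate 1, with 6 libraries or with no low-count filter, and Plin1 was called lower without GPI replicate 1, GMTT replicate 1, Sham replicate 2 or Sham replicate 3. The median of osteoclast signals was 0.016 without GMTT replicate 3. The cause was not tested.

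With each library left out in turn, 6152 to 6443 members were higher and 5862 to 6054 lower. With the replicate number as a block, 6272 were higher and 5986 lower. Same-numbered GMTT and GPI libraries did not deviate together (r = -0.02, 0.05 and 0.05 across genes), and the labels give no shared animal or day for a number, so the numbers do not pair the samples. The 3 libraries a group, and no library of the gel alone, limit what the comparison can separate.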

Other observations

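Genes outside the protein-coding class are given beside all genes tested, of which 44.7% were higher and 41.2% lower. All 25 tested variable segments of immunoglobulin genes were higher in GMTT, with a median log2 fold change of 7.42, and all 13 mitochondrial transfer RNA genes were lower, with a median of -3.96. Long non-coding RNA genes were split, with 292 higher and 299 lower of 774 tested (37.7% and 38.6%). Of 72 small nucleolar RNA genes, 33 were higher and 4 lower (45.8% and 5.56%). Biotypes were those of the count table.

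Some genes were nearly all-or-none between the treated libraries and all others. Usp9y, a Y-linked gene, was at 1.27, 0.959 and 1.17 CPM in GMTT and had no count in any GPI or Sham library. Kdm5d and Uty, also Y-linked, were present in all groups, with means of 27.3 and 17.1 in GPI and 45.6 and 23.5 in GMTT. RT1-N2, a class I histocompatibility gene, was at 2.85, 3.42 and 3.03 in GPI, 7.47, 8.17 and 7.31 in Sham and 0.0424, 0 and 0 in GMTT. ENSRNOG00000063056 and ENSRNOG00000064909 also had counts in GMTT alone, 128 and 77 over the 3 libraries. These genes were picked after their values were seen.

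Eef1a1, a translation factor gene that all cells express strongly and that has many near-identical copies, had 10 counts over the GPI libraries and 44 over the GMTT libraries. Its call as higher was lost with DESeq2 and without GPI replicate 1.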
